A study of Rattus norvegicus with 93 samples.

Results

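The microglia genes described here are the receptor genes Cx3cr1, P2ry12, Csf1r and Trem2, the complement chain genes C1qa, C1qb and C1qc, and Aif1, Tmem119 and Itgam. They were chosen by symbol, make up 10 of the 38354 genes of the expression table, and all 10 passed the filter on low values. The tissue was the rostromedial tegmental nucleus (RMTg) of outbred laboratory rats, an inhibitory brainstem nucleus that projects to midbrain dopamine neurons, and its polyadenylated RNA was sequenced. The labels name 93 samples in 1 group, of which 92 have a column, and give no treatment, strain, age or sex, so the variation between libraries is what could be compared. Values were used from the 49 libraries of 92 in which Nif3l1 took under 20% of the counts and LOC120093067 and Zfp532 together under 10%.

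Microglia are the resident macrophages of the brain parenchyma, and they take up debris, trim synapses and respond to injury. Their survival depends on the CSF1 receptor, encoded by Csf1r, whose ligands CSF1 and IL-34 come largely from neurons and glia. CX3CR1 binds the neuronal chemokine fractalkine, P2RY12 senses ADP and directs microglial processes, and TREM2 senses lipids and signals through the adaptor TYROBP. The C1q chains form the molecule that starts the classical complement pathway, which in the mouse marks synapses for removal, and ITGAM (CD11b) pairs with ITGB2 as a receptor for complement fragments. Aif1 encodes the calcium-binding protein IBA1, and Tmem119 a membrane protein that marks microglia.

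Estimated counts in the 49 libraries summed to between 9.55 and 50.17 M per library (M, 1000000 counts), with a median of 19.19 M. Sample identifiers fall into number series (a gap of over 50000 starts a new one), and series B, C, D, E and F held 7, 16, 12, 7 and 7 of the 49 libraries. The labels do not say what the series mean. The label of 1 of the 49 libraries notes an identifier corrected after a genotype mismatch. Libraries are numbered in the order of the sample list. Library 67 (series D) held the lowest Csf1r and C1qb values and was among the lowest 5 for 6 of the 10 genes, as was library 68. Library 34 (series B, the deepest) was among the highest 5 for 8 of the genes and library 38 (series B) for 7. Library 63 (series C) stood apart in the mean z-score of 12 respiratory chain genes, at -4.37 against -0.60 to 1.77 in the other libraries.

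By the RefSeq gene table of the GRCr8 assembly, C1qb (chr5:154402276-154407827), C1qc (chr5:154410845-154414208) and C1qa (chr5:154417086-154419933) lie side by side on chromosome 5. The other genes are on separate chromosomes: Itgam at chr1:192089496-192139947, P2ry12 at chr2:145631487-145673194, Cx3cr1 at chr8:128661294-128679048, Trem2 at chr9:20145215-20151797, Tmem119 at chr12:48489157-48496214, Csf1r at chr18:56834152-56860804 and Aif1 at chr20:3651435-3657341. P2ry12 lies within the span of Med12l, and Cx3cr1 overlaps LOC134480114. Where transcripts of the overlapping genes share sequence, their reads may not have been told apart without information on strand. Only gene spans were compared, and shared exons were not examined.

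The RefSeq promoter table (GRCr8, 250 bases before to 50 after its own gene start) holds 6 of the 10 genes: Itgam, C1qb, C1qa, Cx3cr1, Trem2 and Csf1r. The windows of Csf1r and C1qb are shown because their levels had the highest correlation of any pair below. The C1qa window is shown because the gene lies near C1qb, with C1qc between them, and followed C1qb less closely. Capitals mark GAGGAA on either strand (TTCCTC where the motif is on the opposite strand). The myeloid transcription factor PU.1 and other ETS factors can bind this sequence. Their sites without GAGGAA were not searched, so a window without capitals may still hold such a site. Each is read 5′ to 3′ on the gene's own strand.
Csf1r, chr18:56834129-56834428, plus strand: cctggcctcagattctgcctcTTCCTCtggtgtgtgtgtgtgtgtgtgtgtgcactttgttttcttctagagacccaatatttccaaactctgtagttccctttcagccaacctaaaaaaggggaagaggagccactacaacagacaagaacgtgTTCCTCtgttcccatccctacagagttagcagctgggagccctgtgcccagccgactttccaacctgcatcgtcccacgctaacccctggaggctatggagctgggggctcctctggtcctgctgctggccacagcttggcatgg
C1qb, chr5:154407778-154408077, minus strand: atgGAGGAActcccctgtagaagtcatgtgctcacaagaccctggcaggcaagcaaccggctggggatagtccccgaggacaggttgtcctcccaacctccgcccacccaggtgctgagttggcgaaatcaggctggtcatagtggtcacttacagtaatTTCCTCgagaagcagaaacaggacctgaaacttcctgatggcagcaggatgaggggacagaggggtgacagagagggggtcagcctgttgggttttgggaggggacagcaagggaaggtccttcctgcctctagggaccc
C1qa, chr5:154419884-154420183, minus strand: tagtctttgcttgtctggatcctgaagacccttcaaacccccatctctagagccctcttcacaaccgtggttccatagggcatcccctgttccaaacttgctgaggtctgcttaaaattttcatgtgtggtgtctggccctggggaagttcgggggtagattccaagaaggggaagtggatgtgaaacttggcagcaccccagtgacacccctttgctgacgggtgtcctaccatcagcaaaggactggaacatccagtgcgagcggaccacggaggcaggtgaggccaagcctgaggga
GAGGAA was in 4 of the 6 windows (Itgam, C1qb, Trem2 and Csf1r) and in 27.6% of all 33469 promoters of the table. Itgam, C1qb and Csf1r each held 2 matches, Trem2 held 1, and C1qa and Cx3cr1 held 0. The longer GAGGAAGT was in 0 of the 6 windows and in 2.42% of all promoters. The AP-1 motif TGANTCA was in 1 (Trem2) and in 7.33% of all, and TATAAA was in 0 of the 6 and in 14.2% of all; both strands were searched throughout, and a GAGGAAGT match contains GAGGAA. For C1qa and C1qb the start in the promoter table is the position the expression table gives, whereas for Csf1r, Cx3cr1, Itgam and Trem2 the tables differ.

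All 10 genes were read in every one of the 49 libraries, and the highest library held 2.64 to 3.65 times the level of the lowest. Values are counts per 1000000 (CPM), which do not correct for transcript length, so levels are compared between libraries and not between genes. The fractalkine receptor gene Cx3cr1 was at 16.47 CPM in the lowest library, 29.31 at the median and 53.18 in the highest. P2ry12, the ADP receptor gene, ranged likewise between 13.52 and 43.43 CPM with a median of 26.26. Csf1r, the survival receptor gene, had 19.72, 39.39 and 65.63 CPM as its lowest, median and highest value. Each of these 3 receptor genes thus spanned 3.21 to 3.33 times its lowest value, without a gap that would part the libraries.

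Trem2, the lipid-sensing receptor gene, had 6.94, 12.99 and 22.46 CPM in the lowest, median and highest library. Itgam, the CD11b gene, had the lowest counts of the 10, with 3.43, 5.41 and 9.78 CPM. Tmem119 had 8.18, 17.1 and 24.72 CPM as its lowest, median and highest value. The smallest estimated count behind any of these values was 46.2, for Itgam, so the genes were measurable in every library.

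Aif1 had 27.84, 44.23 and 97.95 CPM in the lowest, median and highest library. Its highest value, in library 71 (series D), stood above the second highest of 77.23. C1qa had 34.05, 60.16 and 118.3 CPM, with the highest in library 34. For C1qb the lowest, median and highest values were 32.03, 66.15 and 116.8 CPM, and for C1qc they were 27.04, 42.25 and 71.37 CPM. The widest step between neighbouring libraries in any of the 10 genes was 0.56 log2 units, between C1qb in library 67 and its second lowest value of 47.79 CPM. Summed over the 10 genes, a library held 257.1 to 524.4 CPM, with a median of 342.2.

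The coefficient of variation over the 49 libraries lay between 21.6% (C1qc) and 27.4% (Aif1). On the log2 scale the SD was 0.28 to 0.39, against 0.041 to 0.14 that counting error alone would give. After the trend of SD on mean level was removed, 9 of the 10 genes varied more than 76.2% to 90.4% of all 18749 genes tested, P2ry12 most. Itgam was the exception, with a residual SD above that of only 17.6% of genes. In bulk tissue, fewer microglia and less RNA per microglial cell cannot be told apart.

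**Figure D1:**
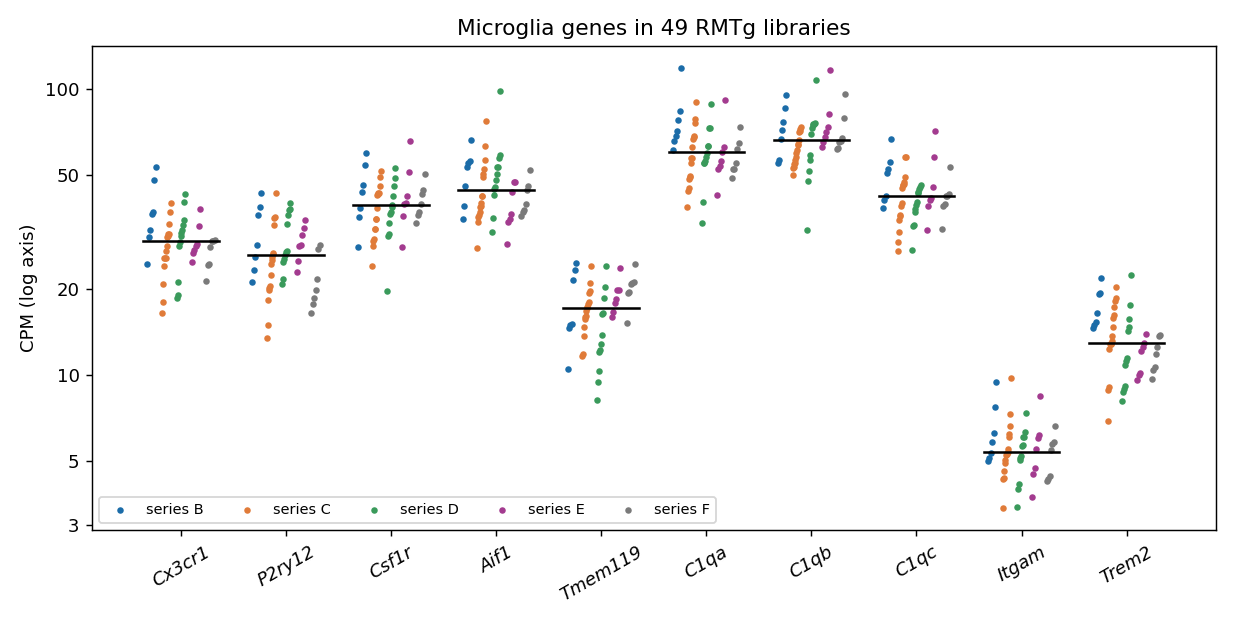
CPM of the 10 microglia genes (log axis), 1 point for each of 49 libraries, coloured and offset by identifier series, with the median over all libraries as a black line. Each gene spans 2.64 to 3.65 times its lowest level, the series overlap for every gene but Trem2, whose series B lies above E and F, and the single lowest Csf1r and C1qb values, 19.72 and 32.03 CPM, are of 1 series D library.

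No microglia gene differed between identifier series at the adjusted threshold. The F test over the 5 series (limma on log2 of CPM plus 1, Benjamini-Hochberg over 18749 genes, threshold 0.05) called 0 of the 10 genes, against 1.71% of all genes. Unadjusted p was under 0.05 for 3 of them. P2ry12 had series medians of 28.56, 24.9, 27.09, 28.57 and 19.85 CPM in B to F (limma adjusted p = 0.242). Tmem119 had 15.12, 16.9, 13.34, 18.48 and 20.82 CPM (limma adjusted p = 0.1999), and Trem2 16.43, 13.43, 11.36, 12.19 and 11.86 CPM (limma adjusted p = 0.197). Series F thus held the lowest P2ry12 median and the highest Tmem119 median, and the ranges of all 5 series overlapped for both genes. For Trem2 the lowest library of series B, at 14.64 CPM, lay above the highest of series E (13.91) and of series F (13.78).

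The microglia genes moved together in part. Of the 45 pairs, 43 had a positive Pearson's r over the 49 libraries, with a median of 0.34, and the median over all pairs of tested genes was 0.026. Csf1r, C1qb and Cx3cr1 stood at the centre: Csf1r and C1qb had the highest r of any pair, at 0.72, followed by Cx3cr1 with Csf1r at 0.66 and Cx3cr1 with C1qb at 0.59. Csf1r had the highest median r with the other 9 genes, at 0.43, and P2ry12 the lowest, at 0.19. Both negative pairs involved Tmem119: r was -0.23 with Aif1, the lowest of the 45, and -0.01 with P2ry12. The libraries are the points in each r, and they share depth and scaling within a library.

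**Figure D2:**
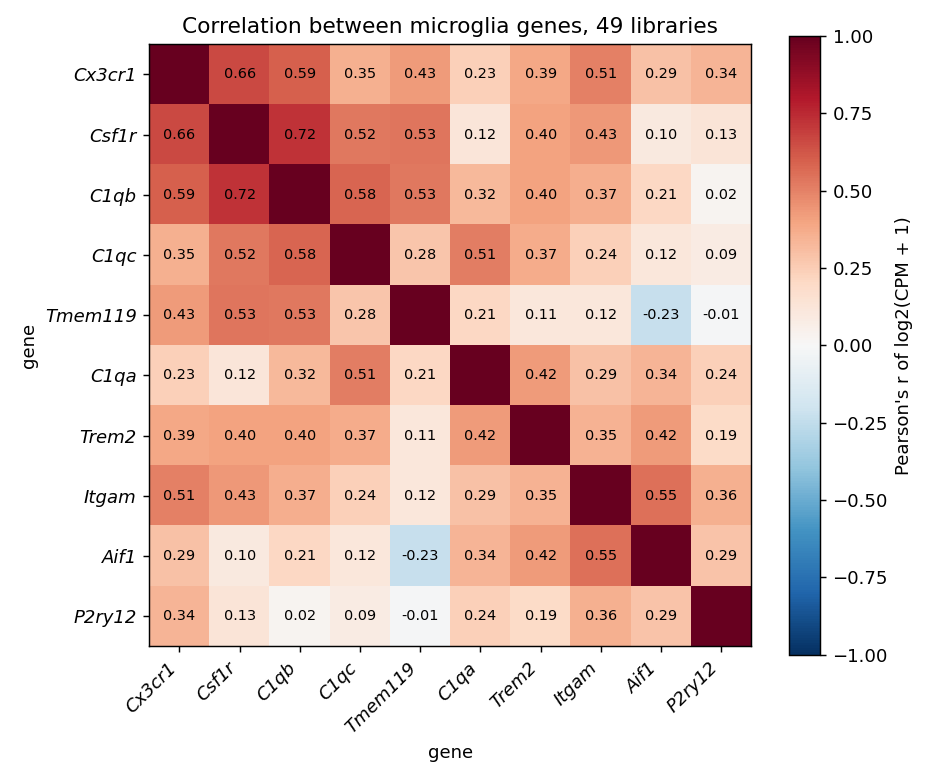
Pearson's r of log2 (CPM + 1) between the 10 microglia genes over 49 libraries; rows and columns are genes and the colour is r. The block of Cx3cr1, Csf1r and C1qb at the upper left has r of 0.59 to 0.72, whereas Aif1 and P2ry12 are near 0 with C1qb, C1qc and Tmem119 or reach at most 0.21, and Aif1 with Tmem119 is at -0.23.

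Principal components summarised the same correlations. The first component held 40.6% of their variance, with loadings of 1 sign for all 10, highest for C1qb (0.40), Csf1r (0.39) and Cx3cr1 (0.39) and lowest for P2ry12 (0.17). The second held 17.7%. On it Tmem119 (0.49), Csf1r (0.28) and C1qb (0.25) lay opposite Aif1 (-0.55), P2ry12 (-0.37) and Itgam (-0.30).

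Each of the 10 genes was then taken in turn as the predictor, and the slope of every other gene per SD of the predictor was fitted. A gene is said to rise or fall with a predictor where its limma slope had a Benjamini-Hochberg adjusted p under 0.05 over all 18748 other genes. Csf1r drew the most of the other 9 microglia genes: 6 rose with it, where 18.5% of all genes rose and 7.05% fell. Of the other 9 genes, 5 rose with C1qb (11% of all genes) and 5 with Cx3cr1 (8.42% of all genes). Tmem119 had 3 (15.7%), Aif1 2 (3.46%) and Itgam 1 (0.101%), and no microglia gene fell in any of these fits. With P2ry12, C1qa, C1qc and Trem2 as predictors 0 of the other 9 were called, where 0.789%, 0.032%, 0% and 0.267% of all genes rose. At an unadjusted limma p under 0.05 the counts were 3, 5, 6 and 7. Over all 18748 genes, 3205, 1666, 2691 and 2157 had such a p in either direction. The counts for Tmem119 and Csf1r therefore stand against a large share of all genes, those for Aif1 and Itgam against a small one.

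The share of all genes depends on the scaling. With median-ratio scaling in place of library totals, 10.3% of genes rose and 10.1% fell with Csf1r, 3% and 1.97% with Cx3cr1, 7.4% and 5.52% with C1qb, 6.61% and 5.48% with Tmem119, and 8.25% and 6.86% with Aif1. With P2ry12, C1qa and Trem2 the shares were 2.45% rising and 0.95% falling, 0.203% and 0.16%, and 0.24% and 0.0854%. Over library totals 2.74%, 4.72%, 3.94% and 10.5% fell with Cx3cr1, C1qb, Tmem119 and Aif1. The counts of microglia genes rising were then 6 with Csf1r, 3 with Cx3cr1, 5 with C1qb, 2 with Tmem119, 3 with Aif1, 1 with C1qa and 0 with P2ry12 and Trem2, and 0 fell in any of these 8 fits.

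In the fit on Csf1r, C1qb had the steepest slope of the 10 genes after Cx3cr1, at 0.22 ± 0.031 log2 units per SD of Csf1r (SE, limma adjusted p = 2.7e-06, n = 49). Their r within series B to F was 0.65, 0.66, 0.80, 0.73 and 0.80, and with libraries 67 and 84, the most distant from the median Csf1r level, left out it was 0.59. Cx3cr1 rose by 0.22 ± 0.037 (SE, limma adjusted p = 3.17e-05), Tmem119 by 0.19 ± 0.043 and C1qc by 0.15 ± 0.036. Trem2 (0.15 ± 0.048) and Itgam (0.12 ± 0.038) rose less. P2ry12, Aif1 and C1qa had slopes of 0.05, 0.03 and 0.04 that missed the threshold (limma adjusted p of 0.518, 0.623 and 0.540). Without library 67 Trem2 also missed it, and without libraries 67 and 84 Trem2 and C1qc did.

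The 3 C1q genes, whose products are needed in the same molecule, did not follow each other equally. C1qb and C1qc correlated over the libraries with r = 0.58 (two-sided permutation p = 3e-05; rho = 0.48, p = 0.00062), and C1qa and C1qc with r = 0.51 (permutation p = 0.00013; rho = 0.57, p = 5e-05). C1qa and C1qb had r = 0.32 (permutation p = 0.0236; rho = 0.30, p = 0.0355). After Benjamini-Hochberg adjustment over the 10 pairs of genes examined singly the p for r were 6e-05, 0.000217 and 0.0294. Leaving out the 2 libraries most distant from the median of the first-named gene gave r of 0.43, 0.45 and 0.24.

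Within series the C1qa and C1qb pair ranged more widely than the others. Its r was 0.74, -0.36, 0.59, 0.14 and 0.45 in series B to F, whereas r of C1qb with C1qc was 0.92, 0.22, 0.71, 0.86 and 0.51 and that of C1qa with C1qc 0.87, 0.43, 0.44, 0.23 and 0.81. The log2 difference of C1qa and C1qb varied over libraries with an SD of 0.38, and that of C1qc and C1qb with an SD of 0.28. In the fits over all genes, C1qc rose with C1qb by 0.17 ± 0.035 (SE, limma adjusted p = 0.000464), but C1qb on C1qc missed the threshold (limma adjusted p = 0.0511). C1qb on C1qa and C1qc on C1qa missed it too (limma adjusted p of 0.47 and 0.0988), as did C1qa on C1qb and C1qa on C1qc (limma adjusted p of 0.0883 and 0.0873). The difference between these correlations was not tested.

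**Figure D3:**
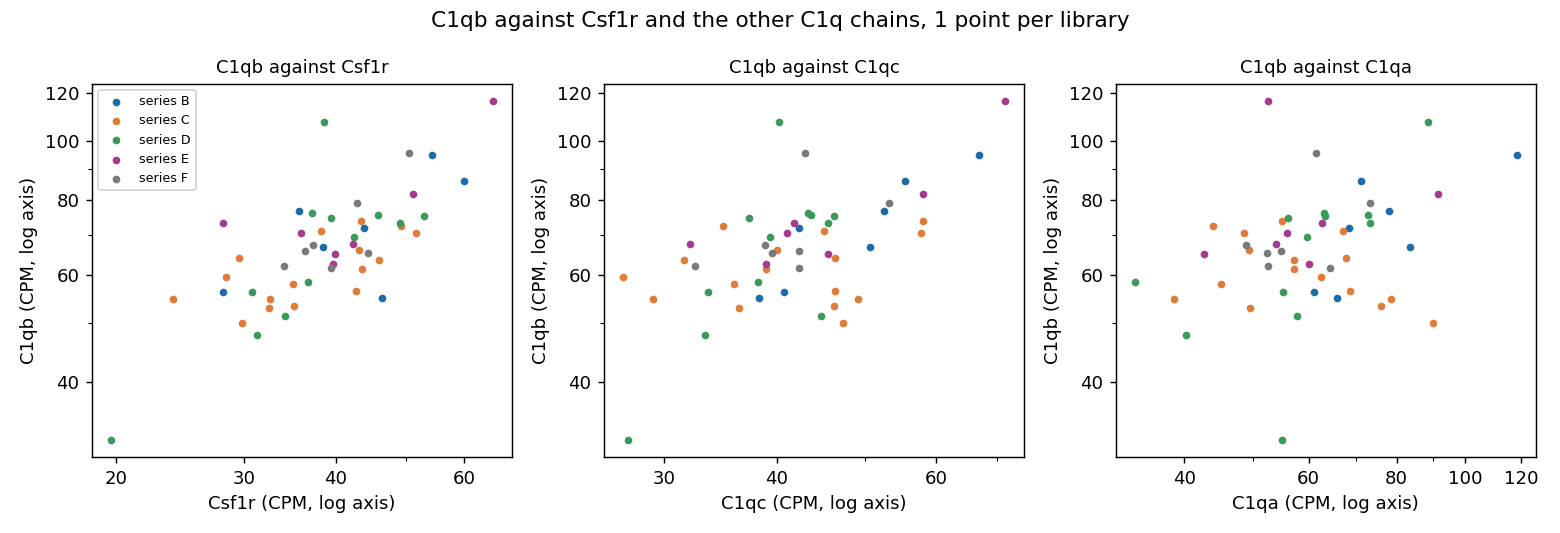
C1qb (CPM, vertical log axis) against Csf1r, C1qc and C1qa (CPM, horizontal log axes), 1 point for each of 49 libraries, coloured by identifier series. The points follow Csf1r most closely (r 0.72), C1qc less (0.58) and C1qa least (0.32), and the lowest C1qb point, at 32.03 CPM, is also the lowest in Csf1r.

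Genes of the ligands and partners were examined next, beside the receptor each belongs to. Csf1 and Il34, the genes of both Csf1r ligands, rose with Csf1r by 0.12 ± 0.029 and 0.11 ± 0.026 log2 units per SD (SE, limma adjusted p of 0.00139 and 0.00171). Their r with Csf1r was 0.55 each (permutation p of 2e-05 and 3e-05, adjusted over the 10 pairs 6e-05 each; rho 0.54 and 0.55, p of 0.00013 and 7e-05), and r without libraries 67 and 84 was 0.49 and 0.50. It was positive in every series, from 0.20 to 0.77 for Csf1 and from 0.17 to 0.71 for Il34. In the fit on Csf1r 18.5% of all genes rose and 7.05% fell (10.3% and 10.1% with median-ratio scaling). Of all 18748 genes, 7148 had an unadjusted limma p under 0.05. The permutation p compares r with 0 and cannot show a link particular to the ligand genes.

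Tyrobp, the gene of the TREM2 adaptor, rose with Trem2 by 0.23 ± 0.035 (SE, limma adjusted p = 8.58e-05). Their r was 0.70 (permutation p = 1e-05, adjusted 5e-05; rho = 0.66, p = 1e-05), and 0.68 with the 2 most distant libraries left out. With 100000 permutations no p can be below 1e-05. It was positive in series B, C, D and F (0.40 to 0.86) and -0.20 in series E. Itgb2, the partner of Itgam, had r = 0.46 with it (permutation p = 0.00069, adjusted 0.000986; rho = 0.36, p = 0.0106), but 0.32 with the 2 most distant left out, and its slope missed the threshold over all genes (limma adjusted p = 0.234). Cx3cl1, the fractalkine gene, had r = 0.28 with Cx3cr1 (permutation p = 0.0501, adjusted 0.0557; rho = 0.25, p = 0.0790; limma adjusted p = 0.174). The ligand pair of Cx3cr1 thus fell short of both thresholds, and the Trem2 pair passed both.

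Other microglia genes mostly moved with Csf1r. Of 14 further genes typical of resting microglia 13 were tested, and 9 rose and 0 fell with Csf1r, with a median slope of 0.13 against 0.02 over all genes. In this fit 18.5% of all genes rose and 7.05% fell (10.3% and 10.1% with median-ratio scaling). Without library 67 the count rising was 8, without libraries 67 and 84 it was 7, and without library 63 it was 10. Among the 13, Selplg, the gene of the P-selectin ligand, rose by 0.25 ± 0.034 (SE, limma adjusted p = 1.25e-06). Slc2a5, a fructose transporter gene, rose by 0.23 ± 0.041, and Laptm5, a lysosomal membrane protein gene of leukocytes, by 0.21 ± 0.030. P2ry13, Entpd1, Ctss, Lgmn and Vsir were among the others that rose, while Gpr34, Olfml3, Sall1 and Rgs10 did not pass. Siglech was too low to be tested. Laptm5 and the cathepsin S gene Ctss each rose in 6 of the 10 fits on single microglia genes, and Slc2a5 in 5.

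Of the 10 ligand, partner and signalling genes 6 rose and 0 fell with Csf1r: Csf1, Il34, Cx3cl1, Tyrobp, Itgb2 and Plcg2, the phospholipase gene downstream of TREM2. The share of all genes rising was 18.5% (10.3% with median-ratio scaling). Only 4 of the 10 rose under median-ratio scaling, without the filter on low values, without library 67, and without libraries 67 and 84. Itgb2 had the steepest slope, at 0.23 ± 0.046 (SE, limma adjusted p = 0.000275), and Tyrobp rose in 6 of the 10 fits on single genes. The median slope of these 10 was 0.12. Tgfb1, Tgfbr1, Syk and Inpp5d did not pass.

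Among 8 myeloid transcription factor genes, of which 7 were tested, 2 rose and 0 fell, and 1 rose without library 67; 18.5% of all genes rose in this fit (10.3% with median-ratio scaling). Spi1, which encodes PU.1, rose by 0.14 ± 0.047 (SE, limma adjusted p = 0.0211) and Irf5 by 0.17 ± 0.045. Irf8, Runx1, Maf and Ikzf1 were among those that did not pass, and the median slope of the 7, 0.02, was that of all genes. Of 11 other complement genes tested 3 rose and 0 fell (1 rose without libraries 67 and 84), also near the share of all genes: C3, the central component, by 0.26 ± 0.076 (SE, limma adjusted p = 0.00915), C4a by 0.14 ± 0.043 and C1r by 0.10 ± 0.038.

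Genes known from lipid-laden and lysosome-rich microglia gave 5 rising and 0 falling of 12 tested. Over all genes 18.5% rose and 7.05% fell with Csf1r (10.3% and 10.1% with median-ratio scaling). Of the 12, 4 rose and 1 fell under median-ratio scaling, and 5 rose and 1 fell on normal scores of ranks. With series, or with Xist and Ddx3y, as covariates 6 rose and 0 fell. Apoe, the lipoprotein gene also made by astrocytes, rose by 0.22 ± 0.035 (SE, limma adjusted p = 1.91e-05), the cathepsin genes Ctsd and Ctsb by 0.18 ± 0.028 and 0.16 ± 0.026, Gpnmb by 0.21 ± 0.047 and the receptor gene Axl by 0.10 ± 0.033. Spp1, Itgax, Lgals3, Lpl, Cd68, Cd9 and Igf1 did not pass, and Clec7a and Cst7 were too low to be tested. Of 12 inflammatory genes only 6 could be tested, and 3 of them rose: Cd74, the MHC class II chaperone gene, by 0.52 ± 0.13 (SE, limma adjusted p = 0.004), Tlr2 by 0.27 ± 0.058 and Cd40 by 0.14 ± 0.046. This count was 2 without library 67 and without libraries 67 and 84. It was also 2 with series, library total, or Xist and Ddx3y as covariates. The cytokine genes Tnf, Il1b, Il6 and Ccl2 averaged 0.305 to 0.385 CPM and were not tested.

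**Figure D4:**
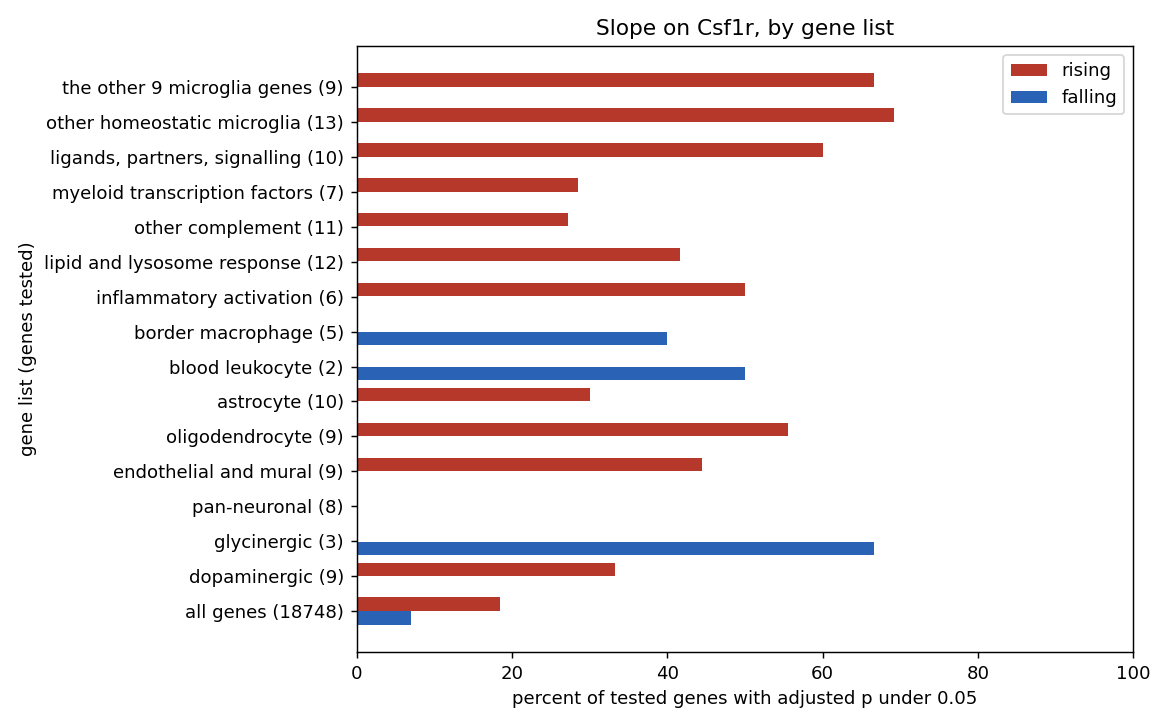
Percent of the tested genes of each list (horizontal axis) that rose (red) or fell (blue) with Csf1r in the limma fit over 49 libraries; the number of genes tested is in parentheses. The microglia, homeostatic and ligand lists had 6 of 9, 9 of 13 and 6 of 10 genes rising, against 18.5% of all genes rising and 7.05% falling.

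Macrophages of the brain borders and blood leukocytes share several of the 10 genes, so their own markers were examined too. The part of these cells in the levels of the 10 genes was not tested. The 8 border macrophage markers summed to 6.67 to 17.01 CPM per library, and 5 were tested. The mannose receptor gene Mrc1 and the scavenger receptor gene Cd163 fell with Csf1r (slopes of -0.15 ± 0.053 and -0.14 ± 0.050, SE, limma adjusted p of 0.0312 and 0.0402). Lyve1, F13a1 and Pf4 did not pass, and 0 rose. In this fit 18.5% of all genes rose and 7.05% fell (10.3% and 10.1% with median-ratio scaling). Without library 67 none of the 5 was called (1 at an unadjusted p under 0.05), and without library 63 none was either (2 unadjusted). The same held without the filter on low values, with Xist and Ddx3y or the respiratory chain score as covariates, and without libraries 67 and 84. No microglia gene was called with the border macrophage score (0 of 10, and 0 at an unadjusted p under 0.05, with 0.0373% of all genes rising and 0.00533% falling). Over all 18749 genes, 3477 had an unadjusted limma p under 0.05.

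Of the 12 blood leukocyte markers, which summed to 1.398 to 19.95 CPM, only S100a9 and Camp passed the filter. S100a9, a neutrophil gene, fell with Csf1r by 0.49 ± 0.11 (SE, limma adjusted p = 0.000888) and was at 0 in 12 libraries. Camp did not pass (slope of -0.05, limma adjusted p = 0.647). In this fit 18.5% of all genes rose and 7.05% fell (10.3% and 10.1% with median-ratio scaling). The B cell gene Ms4a1 was at 0 in 46 of the 49 libraries, and the T cell gene Cd8a in 31.

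Markers of other brain cells were counted in the same fit on Csf1r, where 18.5% of all genes rose and 7.05% fell (10.3% and 10.1% with median-ratio scaling). Of 10 astrocyte genes 3 rose and 0 fell, led by the filament gene Gfap at 0.31 ± 0.059 (SE, limma adjusted p = 0.000214), and 5 rose without library 63. Of 9 oligodendrocyte genes 5 rose and 0 fell, Mog, Ermn and Opalin among them, with the myelin enzyme gene Cnp at 0.21 ± 0.036. Of 9 endothelial and mural genes 4 rose, but 0 without library 67 (3 at an unadjusted p under 0.05). Both Slc6a5 and Glra1 fell, by 0.19 ± 0.063 and 0.18 ± 0.048, among the 3 glycinergic genes, but 1 of the 3 fell without library 67 and 0 without libraries 67 and 84 (2 at an unadjusted p under 0.05, limma). Of 9 dopaminergic genes 3 rose: Th, Slc6a3 and Drd2; 1 rose without libraries 67 and 84. None of 8 pan-neuronal genes was called by limma (1 at an unadjusted p under 0.05, falling). Of 12 respiratory chain genes 7 fell and 1 rose, but 4 fell without library 67, 4 under median-ratio scaling, 4 with Xist and Ddx3y as covariates and 1 without libraries 67 and 84. The part of each cell type or of RNA quality in the Csf1r slopes was not tested.

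Microglia genes also moved with markers of other brain cells. Scores were the mean z-score of each list's genes, and the slope of each microglia gene was fitted per SD of the score. With the astrocyte score (10 genes) 4 of the 10 microglia genes rose and 0 fell, where 14.9% of all genes rose and 16.1% fell (18.8% and 17% with median-ratio scaling). P2ry12 had the steepest slope, at 0.20 ± 0.046 log2 units per SD (SE, limma adjusted p = 0.000771), followed by Csf1r at 0.13 ± 0.042, Itgam at 0.12 ± 0.038 and Cx3cr1 at 0.11 ± 0.045. P2ry12, which rose with none of the other microglia genes, thus rose most with astrocyte markers. Its r with the score was 0.82, 0.74, 0.57, -0.49 and 0.27 in series B to F. Cx3cr1 lost its call (adjusted p was 0.0468) with series as a covariate and under median-ratio scaling, among other settings.

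With the oligodendrocyte score (9 genes) 4 microglia genes rose and 0 fell, where 12% of all genes rose and 6.7% fell (5.51% and 5.23% with median-ratio scaling). Cx3cr1 rose by 0.19 ± 0.040 (SE, limma adjusted p = 0.000628) and Csf1r by 0.18 ± 0.038 (SE, limma adjusted p = 0.000659). Their r with the score was positive in each of the 5 series. Tmem119 (0.14 ± 0.046) and C1qb (0.12 ± 0.040) also rose, but both lost their calls under median-ratio scaling, where 2 microglia genes rose, and without library 67, where again 2 did.

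The endothelial and mural score (9 genes) drew only Cx3cr1 of the 10 genes, with a slope of 0.17 ± 0.042 (SE, limma adjusted p = 0.0048) and r above 0 in each of the 5 series, where 10.9% of all genes rose and 2.91% fell (6.36% and 3.54% with median-ratio scaling). Without library 63, Csf1r and C1qb rose as well, giving 3 microglia genes. With the dopaminergic score 0 of the 10 were called (1 at an unadjusted p under 0.05), where 1.48% of all genes rose and 1.64% fell. Over all 18749 genes, 3813 had an unadjusted limma p under 0.05.

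With the glycinergic score, built from the glycine transporter gene Slc6a5 and the receptor genes Glra1 and Glrb, 5 microglia genes fell and 0 rose, where 4.66% of all genes fell and 3.85% rose (6.41% and 9.61% with median-ratio scaling). C1qb fell by 0.21 ± 0.033 log2 units per SD (SE, limma adjusted p = 0.000127), and its r with the score was -0.57, -0.71, -0.95, -0.56 and -0.60 in series B to F. Csf1r and Cx3cr1 fell by 0.17 ± 0.039 and 0.17 ± 0.042 with r below 0 in each series, and Trem2 and C1qc by 0.16 ± 0.047 and 0.14 ± 0.037 with r below 0 in 4 of 5 series.

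Library 67 also held the highest glycinergic score and library 63 the lowest. Without library 67, or without library 63, 3 microglia genes fell, namely C1qb, Csf1r and Cx3cr1. Without both, C1qb alone fell. With the pan-neuronal score (8 genes) Aif1 and Itgam fell by 0.15 ± 0.044 and 0.13 ± 0.037 (SE, limma adjusted p of 0.0243 and 0.0268), where 3.75% of all genes fell and 6.15% rose (6.27% and 5.25% with median-ratio scaling). Both had r below 0 with the score in each series, but neither call held with series as a covariate, with median-ratio scaling, with Xist and Ddx3y as covariates, or with the 2 libraries most distant from the median score left out.

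**Figure D5:**
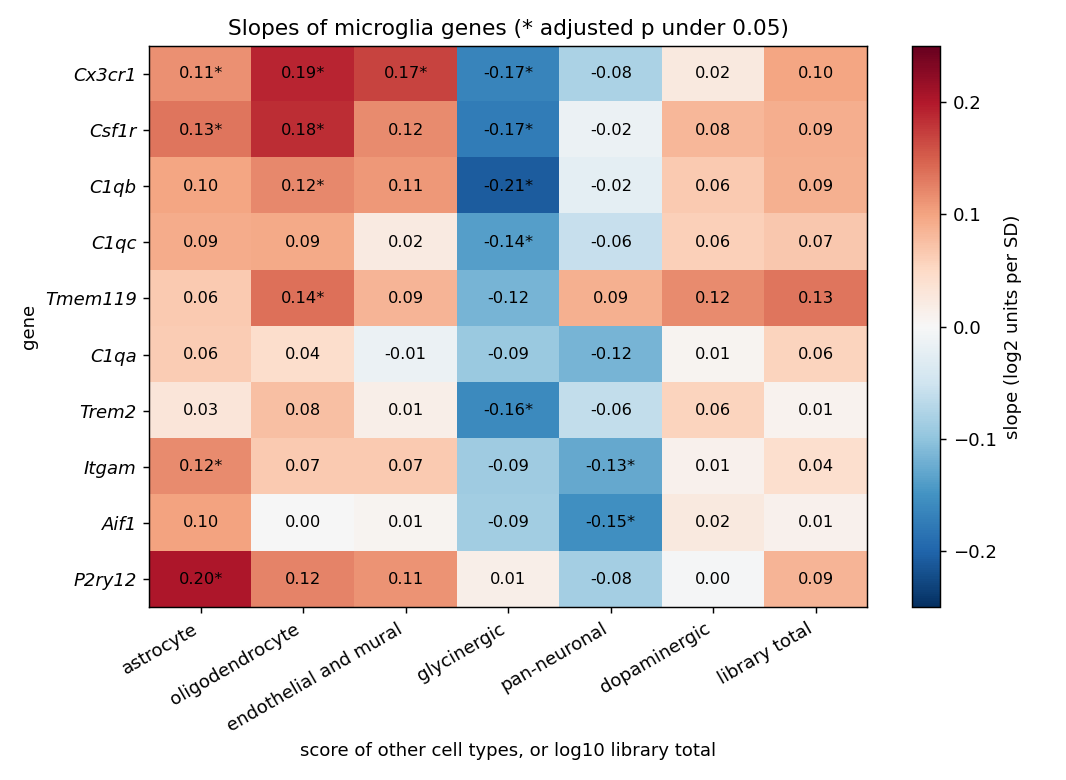
Limma slopes of the 10 microglia genes (rows) on scores of other cell types and on log10 library total (columns), in log2 units per SD over 49 libraries; red is positive, blue negative, and an asterisk marks an adjusted p under 0.05. Rising calls lie in the 3 glial and vascular columns and falling calls in the glycinergic and pan-neuronal columns, led by C1qb on the glycinergic score at -0.21.

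With log10 library total 0 of the 10 genes were called (4 at an unadjusted p under 0.05), where 0% of all genes rose and 0.0107% fell. Over all 18749 genes, 1589 had an unadjusted limma p under 0.05. The slopes were positive for all 10, the steepest for Tmem119 at 0.13 ± 0.046 (limma adjusted p = 0.442). Scores of respiratory chain and ribosomal protein genes, both lists chosen after the data had been seen, called few of the 10 genes. With the respiratory chain score 1 rose, 1 fell and 8 were not called. With the ribosomal protein score 1 rose and 9 were not called. These counts are close to the shares of all genes given below. Csf1r fell with the respiratory chain score by 0.11 ± 0.043 (SE, limma adjusted p = 0.0399) and Aif1 rose with it by 0.13 ± 0.045 (SE, limma adjusted p = 0.0226), where 10.2% of all genes rose and 16.4% fell (16.1% and 12.9% with median-ratio scaling). Aif1 also rose with the ribosomal protein score, by 0.15 ± 0.044 (SE, limma adjusted p = 0.0138; 6.7% of all genes rose and 15.2% fell, 13.3% and 11.2% with median-ratio scaling). Library 71, highest in Aif1, was also highest in the respiratory chain score. With the 2 libraries most distant from each median score left out, Aif1 missed the threshold in both (limma adjusted p of 0.0858 and 0.115). Csf1r missed it under median-ratio scaling (limma adjusted p = 0.0816), without library 67 (limma adjusted p = 0.0808), without the library of corrected identifier (limma adjusted p = 0.0536), without the filter (limma adjusted p = 0.0738) and with Xist and Ddx3y as covariates (limma adjusted p = 0.122). Aif1 on the respiratory chain score also missed it with Xist and Ddx3y (limma adjusted p = 0.0828). Aif1 on the ribosomal protein score also missed it on normal scores of ranks (limma adjusted p = 0.0910) and with the respiratory chain score as a covariate (limma adjusted p = 0.259). The part of RNA quality in these slopes was not tested.

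The genes whose levels were most like those of the 10 were sought among all 18749, leaving out the 10 and unnamed loci, by their median r with the 10 over the 49 libraries. Tmem176b, a membrane protein gene of myeloid cells, was nearest, with a median r of 0.57 and a range over the 10 of 0.19 to 0.76. Cyba, a subunit of the phagocyte NADPH oxidase, followed at 0.52, then Laptm5 (0.52), the astrocyte gene S100b (0.52), the lysosomal nuclease gene Pld4 (0.51), Tmem176a (0.51) and Tyrobp (0.51). Ctsz, Npc2, Coro1b, the Fc receptor gene Fcgr2b and the astrocyte gene Gfap completed the nearest 12, at 0.48 to 0.50. At the other end lay Kcnj3, a potassium channel gene, with a median r of -0.44, and Camta1, Etl4, the sodium channel gene Scn1a, Runx1t1 and Gp1ba at -0.37 to -0.40.

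Taken gene by gene, the nearest gene was Tmem176a for Cx3cr1 (r = 0.77), Pld4 for Csf1r (0.84), Cyba for Trem2 (0.71) and Fcgr2b for Itgam (0.65). For Aif1 it was Gmfg (0.73), a leukocyte actin regulator. Tmem119 was nearest to Cdh13 (0.69), C1qa to Rnf5 (0.68), C1qb to Emc8 (0.85) and C1qc to Med9 (0.59). These r describe the 49 libraries and were chosen as the highest of all genes, so they carry no test.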

How the data were processed

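The authors deposited 1 table of log2 values per gene and library; per the submitters' processing notes, reads were quantified with kallisto 0.48. From the values, each deposited entry is log2 of an estimated count plus 1, with neither depth nor length removed: after back-transformation, 49.98% of entries between 0 and 20 lay within 0.01 of a whole number. The genome build is not given in the sources used here; positions of all 38278 matched symbols equal an end of the gene in the RefSeq GRCr8 table.

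Values were back-transformed, scaled to CPM (counts per 1000000), taken as log2 of CPM plus 1, and kept where log2 was at least 1 in at least 20% of libraries (18749 genes). All tests across genes used limma 3.58.1 in R 4.3.3, with a mean trend and Benjamini-Hochberg adjustment over all genes. Count models were not applied to the back-transformed estimated counts. Single pairs used two-sided permutation tests with 100000 permutations. The 10 genes and the lists were chosen with earlier results of these data known. Named genes are the 10, the lists' genes, the 12 nearest and 6 farthest by median r, and each gene's nearest; a few of these are not reported here. The procedure was tested on simulated data with independent normal noise for each gene. That setting cannot show how often it calls genes falsely where genes are correlated. Promoters and gene positions are RefSeq's. The labels do not state that each library is a separate animal, so p-values measure the spread between libraries. The 43 libraries outside the rule's limits were not tested. Alternatives are listed in the closing section.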

Additional observations from a re-analysis of the deposited data

Results flagged for a closer look

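The 43 libraries left out of the comparisons also held reads of the microglia genes, above the 3 counts taken as the limit of a count of 0. Cx3cr1 was above it in 37 of the 43 libraries, Csf1r and C1qa in 35 each, and P2ry12 and Itgam in 33 each. Tmem119, C1qb and C1qc were above it in 32 each, Aif1 in 31 and Trem2 in 29. Nearly all of these were the 32 libraries rich in LOC120093067 and Zfp532. Of the 11 libraries rich in Nif3l1, 5 were above it for Cx3cr1, 3 each for Csf1r and C1qa, 1 each for P2ry12, Tmem119, C1qb and Itgam, and 0 for Aif1, C1qc and Trem2. The limit covers counting error only.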

How the results depend on the processing

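The meaning of the series is unknown, values are not length-corrected, and leaving out 1 library moved several counts. No paired analysis was possible because all samples belong to 1 group. Alternatives that leave out library 67 (lowest in Csf1r) or library 63 (lowest in the respiratory chain score), or add the respiratory chain score as a covariate, were chosen after seeing the data. Each of the 45 pairs of microglia genes was fitted in both directions, which gave 90 slopes. Of these 22 rose, and 17 to 27 under the alternatives within the 49 libraries, with 0 falling in each. Over all 92 libraries, where the libraries differ in the features that dominate their counts, all 90 slopes between microglia genes rose. The series test then called 9 of the 10 genes and 14000 genes in all, and 18110 genes were called with Csf1r. Each score and the library total called 10, and the median log2 level of the 10 genes was 4.05 over all 92 libraries against 5.11. There the slopes on the pan-neuronal score turned to 1.60 for Aif1 and 0.78 for Itgam, and those on the glycinergic score to 1.23 for Cx3cr1, 1.4021 for Csf1r, 1.65 for C1qb, 1.504 for C1qc and 1.09 for Trem2. Genes in the series test numbered 320, but 105 with Xist and Ddx3y as covariates and 117 on normal scores of ranks. Genes called with Csf1r numbered 4795, but 3104 without library 67 and 1892 without the 2 farthest libraries. Lists in that fit moved too: the endothelial and mural list had 4 rising, but 0 without library 67. The astrocyte score called 4 genes, but 7 without the 2 farthest libraries. The oligodendrocyte score called 4, but 2 under median-ratio scaling, without the filter, with library total as a covariate and without library 67. The endothelial and mural score called 1, but 2 with Xist and Ddx3y, without the 2 farthest libraries and with the respiratory chain score, and 3 without library 63. The pan-neuronal score called 2, but 0 under median-ratio scaling, with Xist and Ddx3y, with series as a covariate and without the 2 farthest libraries. The glycinergic score called 5, but 1 without the 2 farthest libraries and 3 without library 67, without library 63 and on normal scores. The causes were not tested.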

Other observations

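The 43 libraries outside the limits on Nif3l1, LOC120093067 and Zfp532 were described without a test, with totals that leave out these 3 features. In the 49 libraries used, the median of Cx3cr1 on that scale was 29.96 CPM, and in the 32 libraries where LOC120093067 and Zfp532 took over 10% of the counts it was 28.82 CPM. Itgam likewise had medians of 5.58 CPM in the 49 libraries and 8.55 CPM in the 32. The other genes were lower there: C1qb had medians of 68.06 CPM in the 49 libraries and 10.99 in the 32, Aif1 45.31 and 8.95, and Trem2 13.44 and 3.68. The microglia genes thus did not move as 1 block between these libraries, and estimated counts in the 32 were small, with a median of 9 for Trem2 and 25.5 for Aif1.

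The range within the 32 libraries was wide for some genes: Aif1 lay between 0.98 and 171.4 CPM and C1qa between 6.8 and 215.3 CPM, while Itgam lay between 2.66 and 16.07 CPM. In the 11 libraries where Nif3l1 took over 20% of the counts, every microglia gene had a median under 1 CPM, and Trem2 was listed at 0 in 10 of the 11. The labels give no treatment, strain, age or sex for these libraries, but the identifier series held them unevenly. Of the 43 libraries outside the limits, 6 were of series A, 27 of series B, 9 of series C and 1 of series D. The libraries used numbered 7 in series B, 16 in C, 12 in D, 7 in E and 7 in F. Series A held only libraries outside the limits. The cause of this uneven spread was not tested.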
